A study of Mus musculus with 5 samples.

Results

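A set of 6 named plasmacytoid dendritic cell genes, Siglech, Tcf4, Pacsin1, Runx2, Cox6a2 and Ly6d, were followed in CD45+ leukocytes sorted by flow cytometry from the pancreas of female WT NOD mice aged 10 weeks. The NOD strain develops autoimmune diabetes spontaneously. The genes were taken by name, with the probe set of highest mean and a single gene symbol for each, and 5 of the 6 had such a probe set among the 19938 genes so represented. The expression of Runx2, a transcription factor of bone-forming cells that plasmacytoid dendritic cells also use, was not analysed here. Each of the 5 mice gave 1 array, and all formed 1 group with no treatment or second genotype. T2, the transverse relaxation time read by MRI, was given in the labels as 35.3 ms for mouse 1, 35.24 ms for mouse 2, 32.77 ms for mouse 3, 30.02 ms for mouse 4 and 28.98 ms for mouse 5. The design asks how transcript levels of the infiltrate vary with that signal, and which T2 values go with more severe disease was not given in the labels.

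Plasmacytoid dendritic cells are rare leukocytes that sense nucleic acids in endosomes through TLR7 and TLR9 and secrete large amounts of type I interferon. The E protein TCF4, also called E2-2, sets and maintains their identity, and its inhibitor ID2 favours conventional dendritic cells. In the NOD pancreas these cells have been studied as a source of interferon early in islet inflammation. Several of their genes are shared with B cells, among them Tcf4, Spib, Bcl11a, Blnk and Tlr9.

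Levels are given as RMA intensity on a linear scale, or as its log2 where stated. RMA is a method that corrects, normalizes and summarizes the probes of an array. The T2 test covered the 6603 of 19938 genes whose log2 intensity averaged 6 or more. Of the 5 measured plasmacytoid dendritic cell genes 4 passed this filter and Cox6a2 did not. Ptprc, which encodes CD45, had a log2 intensity of 11.06 ± 0.10 (SD, n = 5). The file has no detection calls, and the arrays had medians from 23.8 to 24.5, so values near them cannot be set apart from background here. In a bulk sort of leukocytes, fewer cells of a type and less RNA per cell cannot be told apart.

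The RefSeq promoter table (GRCm38.p6) held Siglech, Pacsin1 and Runx2 of the 6 genes. The upstream stretches of Siglech and Pacsin1 are shown because Siglech varied most between mice and Pacsin1 least, and because E proteins such as TCF4 bind the E-box, CANNTG. The Siglech stretch is chr7:55767934-55768183, plus strand, and the Pacsin1 stretch chr17:27684989-27685238, plus strand, each the 250 bases before the annotated start, 5′ to 3′, with E-boxes in capitals.
Siglech: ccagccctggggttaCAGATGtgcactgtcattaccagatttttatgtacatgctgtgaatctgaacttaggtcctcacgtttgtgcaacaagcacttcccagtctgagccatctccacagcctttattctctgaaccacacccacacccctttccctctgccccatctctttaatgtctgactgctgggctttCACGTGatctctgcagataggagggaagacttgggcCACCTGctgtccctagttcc
Pacsin1: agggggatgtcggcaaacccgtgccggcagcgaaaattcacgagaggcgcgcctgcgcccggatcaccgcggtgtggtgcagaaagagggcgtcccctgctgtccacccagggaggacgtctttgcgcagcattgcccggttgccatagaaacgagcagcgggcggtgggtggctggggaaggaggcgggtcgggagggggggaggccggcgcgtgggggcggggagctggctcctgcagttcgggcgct

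The Siglech stretch held 3 E-boxes on either strand, beginning 235, 56 and 20 bases before the start, and the last of them read CACCTG, the reverse of CAGGTG. The Pacsin1 stretch held 0, and that of Runx2 held 1. Among 32851 promoters of the table, 66.2% held at least 1 E-box and 12.2% held 3 or more in the same window. The narrower forms CAGGTG, which is one kind of E-box, and CAGCTG, another, occurred in 17.2% and 13.0% of them. The Runx motif TGTGGT, searched on both strands, occurred once in each of the 3 stretches and in 14.1% of all promoters. These are matches of letters, and binding was not measured. Whether E-boxes bear on the spread of a gene between mice was not tested, and the promoters of Tcf4, Cox6a2 and Ly6d were not in the table.

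Siglech, the sialic acid-binding receptor Siglec-H used as a marker of mouse plasmacytoid dendritic cells, varied more between mice than the other measured genes of the set. From mouse 1 to mouse 5 its intensity read 43.7, 71.2, 82.4, 45.2 and 97.5. Mice 1 and 4 were low and mouse 5 was the highest, a ratio of 2.23 between the highest and the lowest mouse. The mean log2 intensity was 6.01 ± 0.52 (SD, n = 5), and the order from low to high was mouse 1, 4, 2, 3 and 5. Each mouse was measured once, so whether neighbours in this order differ could not be tested. Mice 1 and 2 carried nearly the same T2 and were at 43.7 and 71.2.

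Tcf4, the E protein that directs the lineage and that B cells also express, read 147, 107, 125, 114 and 186 in mice 1 to 5. Its log2 mean was 7.06 ± 0.32 (SD, n = 5), with mice 5 and 1 high and mouse 2 low. Mouse 1 was thus the lowest array for Siglech and the second highest for Tcf4. Mouse 5 was the highest for both.

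The remaining 3 genes were nearly flat. Ly6d, a GPI-anchored surface protein of early B lineage and plasmacytoid precursors, read 141 in mice 1, 2 and 3, 125 in mouse 4 and 162 in mouse 5, a log2 mean of 7.14 ± 0.13 (SD, n = 5). Pacsin1, an adaptor of membrane trafficking known from neurons and plasmacytoid dendritic cells, read 69.5, 79.3, 73.5, 70.8 and 73.5 in mice 1 to 5, a log2 mean of 6.19 ± 0.073 (SD, n = 5). For Ly6d only mice 4 and 5 departed from a shared value, whereas Pacsin1 was highest in mouse 2. Cox6a2, the heart and muscle isoform of a cytochrome c oxidase subunit, read 41.1 in mouse 1, 48.1 in mouse 4 and 43.5 in the other 3, a log2 mean of 5.45 ± 0.082 (SD, n = 5). Ly6d and Cox6a2 each had an equal value on 3 of the 5 arrays. Of all genes tested 38.2% had an equal value on 3 or more arrays, and such ties lower the spread seen between mice.

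**Figure D1:**
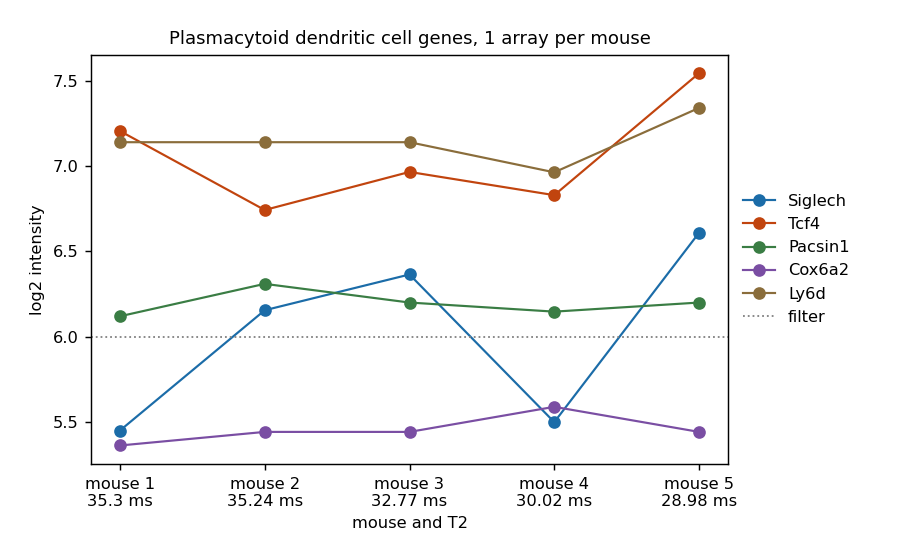
Log2 intensity of the 5 measured plasmacytoid dendritic cell genes (y axis) in each mouse with its T2 (x axis); each point is 1 array and the dotted line is the filter on the mean at 6. Siglech spans 5.45 to 6.61, with mice 1 and 4 low, while Pacsin1 and Cox6a2 span only 0.19 and 0.23 log2.

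Markers of other cells of the body that use these genes lay under the filter, though not all of them below the named genes. Of the lists for striated muscle (7 measured genes), neurons (5), bone and fibroblasts (6) and keratinocytes (5), 0 genes passed the filter. Of all 19938 genes 6603 passed it. The muscle list, which bears on Cox6a2, had a mean log2 intensity between 4.77 and 4.79 in the 5 mice, with Acta1, a skeletal actin, at 49.5 to 54.4 and Tnnt3, a troponin, at 51.9 on all 5 arrays. The neuron list, which bears on Pacsin1, ranged from 3.63 to 3.72, with Snap25, a SNARE protein of the presynaptic membrane, at 12.3 on all 5 arrays and the neuronal splicing factor Rbfox3 at 17.5 to 19.2. The bone and fibroblast list ranged from 4.21 to 4.44, with the collagens Col1a1 at 44.8 to 59.0 and Col3a1 at 28.3 to 36.3. The keratinocyte list ranged from 3.75 to 3.81, with Ly6g6c at 22.5 to 24.3 and Krt10 at 20.3 to 20.5. Islet genes ranged from 3.70 to 3.90 as a list, with Sst at 26.2 to 38.8 and Ins2 at 18.1 to 18.5. Acta1, Tnnt3 and Col1a1 lay near or above Cox6a2, at 41.1 to 48.1, and Siglech in mice 1 and 4, at 43.7 and 45.2. Whether values at that level stand above background could not be told here.

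The 5 genes did not share 1 order of the mice. Likeness was measured in each pair of genes as the number of the 10 pairs of mice that both genes order alike, and as the mean absolute difference between their log2 values after each gene was centred on its own mean. No correlation coefficient is given for 5 mice. Over the 10 pairs of genes a median of 4 pairs of mice were ordered alike and 3 in opposite ways, with the rest tied. The median difference was 0.289 log2, and it ran from 0.073 for Pacsin1 and Cox6a2, which are both flat, to 0.449 for Siglech and Cox6a2. Siglech and Tcf4 ordered 6 pairs of mice alike and 4 oppositely, with a difference of 0.401. Siglech and Pacsin1 ordered 7 alike and 2 oppositely, and Siglech and Ly6d 6 alike and 1 oppositely. Tcf4 and Ly6d also had 6 alike and 1 opposite, whereas Tcf4 and Pacsin1 had 3 alike and 6 opposite.

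**Figure D2:**
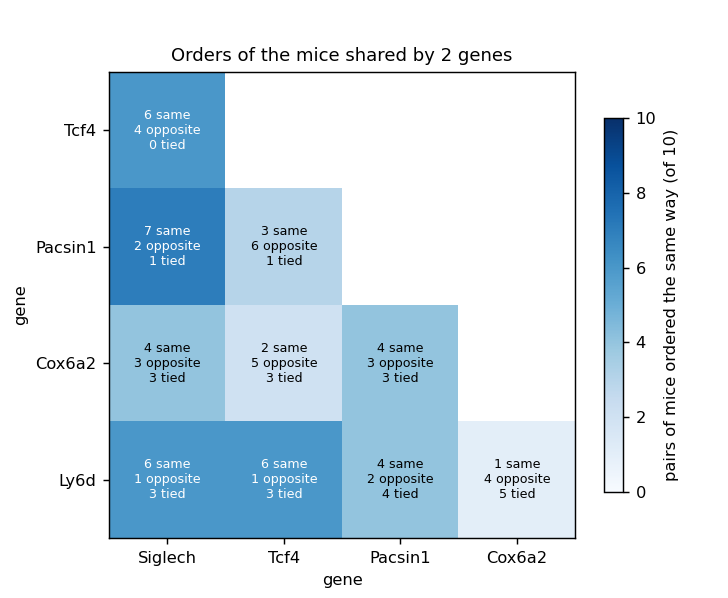
For each pair of the 5 genes, the number of the 10 pairs of mice ordered the same way (colour and text), oppositely, or tied in at least 1 of the genes. Siglech and Pacsin1 share the most orders, 7, and Cox6a2 and Ly6d the fewest, 1, with 5 tied.

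None of the 5 genes passed the test of a slope on T2. With limma, log2 intensity was fitted on T2, and 0 of 6603 genes passed at an adjusted p under 0.05, that is 0.0% of genes tested; at an unadjusted p under 0.05 there were 349, or 5.29%, none of them among the 5. Siglech had a slope of -0.06 ± 0.086 log2 per ms (SE, n = 5; limma adjusted p = 0.912). Its fitted level at the lowest T2 was 1.28 times that at the highest, with a 95% interval from 0.442 to 3.71. Tcf4 had a slope of -0.05 ± 0.051 (limma adjusted p = 0.853) and a ratio of 1.23 (0.656 to 2.32). Without mouse 5 the slopes turned, to 0.035 for Siglech and 0.026 for Tcf4, and that of Siglech was 0.0038 without mouse 1 and 0.048 with array weights.

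Intervals were narrower for the flat genes. Pacsin1 had a slope of 0.0061 ± 0.013 (limma adjusted p = 0.955) and a ratio of 0.974 (0.832 to 1.14). Ly6d had -0.0079 ± 0.023 (limma adjusted p = 0.988) and 1.04 (0.777 to 1.38); its slope was 0.0039 when the arrays were quantile normalized again and 0.031 without mouse 5. Cox6a2, read from the fit of all 19938 genes because it lay under the filter, had -0.02 ± 0.012 (limma adjusted p = 0.813) and 1.08 (0.927 to 1.25). In that fit 0 genes passed (0.0%), and 646 had an unadjusted p under 0.05 (3.24%). The exact permutation of T2 over its 120 orders, two-sided and unadjusted, gave p = 0.492 for Siglech, 0.45 for Tcf4, 0.717 for Pacsin1, 0.35 for Cox6a2 and 0.85 for Ly6d. The smallest p it can give is 0.00833 for a gene with 5 different values, such as Siglech or Tcf4. For Pacsin1, Cox6a2 and Ly6d, which have equal values on some arrays, the smallest possible p is larger. Of the 5 slopes 4 lay below 0, as did 67.9% of the slopes of all genes tested, so this share is near the background. That background depends on the normalization. The median slope of all genes tested was -0.0074, and 0.0029 when the arrays were quantile normalized again.

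**Figure D3:**
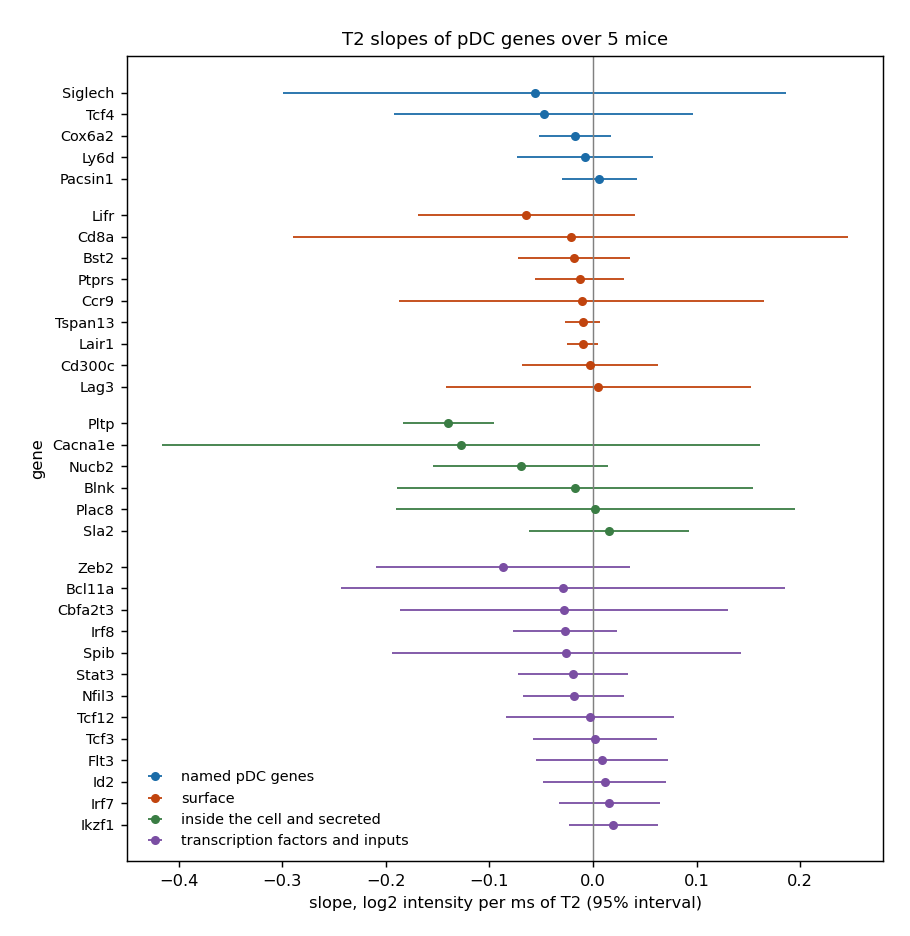
Slope of log2 intensity on T2 (x axis, log2 per ms) with its 95% interval from limma over 5 mice, for the 5 named genes and the 28 other plasmacytoid dendritic cell genes past the filter, in 4 colours by list; Cox6a2 comes from the fit with no filter. The intervals of all genes but Pltp include 0, and those of Siglech and Cacna1e are among the widest.

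Other genes linked to plasmacytoid dendritic cells were read from lists of surface proteins, of proteins inside the cell or secreted, and of transcription factors and their inputs. Of 47 genes listed 43 were measured and 28 passed the filter, where 6603 of all 19938 genes did. Of these 28 genes 0 passed the T2 test, as did 0 of all 6603. Their slopes were below 0 for 20, or 71.4%, and above 0 for 8, with a median of -0.015 against -0.0074 over all genes tested. Of all genes tested 67.9% had slopes below 0 in the same fit, so this share is near the background of that fit. Pltp, a phospholipid transfer protein that macrophages also make, was the 1 gene of the 28 with an unadjusted limma p under 0.05. Of all genes tested 5.29% had such a p, so 1 of 28 is not above the background. It read 440, 439, 596, 800.3 and 761 in mice 1 to 5, a slope of -0.14 ± 0.015 (limma adjusted p = 0.266). Mice 4 and 5 were also the highest for the macrophage list, whose mean over 7 genes was 8.04, 8.05, 8.70, 9.22 and 9.18 in mice 1 to 5. The part of macrophages in the Pltp values was not tested.

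Among the surface genes, 3 of the 9 past the filter ordered at least 8 of the 10 pairs of mice as Siglech did, compared with 5.38% of all genes tested. The genes inside the cell or secreted gave 0 of 6, and the 3 lists together 3 of 28, or 10.7%. A gene with an equal value on 3 or more arrays has at least 3 tied pairs and cannot reach 8. Such ties were found in 3 of the 9 surface genes and in 38.2% of all genes tested. Bst2, tetherin, the antigen of a widely used plasmacytoid dendritic cell antibody, read 99.5, 113, 122, 108 and 120.1 in mice 1 to 5, with 9 pairs alike and 1 opposite. Like Siglech it was lowest in mice 1 and 4. Ccr9, a chemokine receptor of plasmacytoid dendritic cells and gut-homing T cells, read 58.4, 115, 87.1, 77.7 and 91.9 in mice 1 to 5, with 8 alike and 2 opposite. Cd300c, an activating immunoglobulin-like receptor, read 63.3, 63.3, 69.2, 56.2 and 71.0, with 8 alike and 1 opposite. Ccr9 and Cd300c were chosen for naming after their values were seen. Ccr9 peaked in mouse 2, where the T cell list was also highest, at a mean of 8.75 over 9 genes against 7.97 to 8.31 in the other 4 mice, and the part of T cells in its values was not tested.

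The other surface genes of highest level did not follow Siglech as closely. Tspan13, a tetraspanin, was equal at 552 on 3 arrays and read 546 in mouse 2 and 585 in mouse 5. Lifr, the receptor chain for leukemia inhibitory factor, was equal at 117 on 3 arrays and read 79.3 in mouse 2 and 133 in mouse 5. Cd8a, found on some dendritic cells and on cytotoxic T cells, ran from 221 in mouse 1 to 594 in mouse 2 and ordered 5 pairs as Siglech did and 5 oppositely. Over the 9 surface genes past the filter a median of 7 pairs were alike and 2 opposite, and over all genes tested 4 and 4.

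Of the 13 transcription factors and inputs past the filter 0 ordered at least 8 pairs as Siglech did and 0 ordered at least 8 oppositely, where all genes tested gave 5.38% and 3.85%, so both counts are near the background. Their medians were 3 pairs alike and 6 opposite. Irf8, which dendritic cell development needs, read 305, 261, 303, 335 and 303 in mice 1 to 5, highest in mouse 4. Id2, the inhibitor of E proteins, read 360, 418, 439, 373 and 373 in mice 1 to 5, with 7 pairs alike and 2 opposite. Ikzf1, the lymphoid factor Ikaros, ran from 595 in mouse 3 to 707 in mouse 2, and Stat3, which relays the growth factor FLT3 ligand, from 459.7 in mouse 2 to 566 in mouse 4. The 13 slopes ran from -0.087 to 0.020.

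Among proteins inside the cell or secreted, Cacna1e, a voltage-gated calcium channel subunit, ordered all 10 pairs of mice as Tcf4 did. It read 172, 77.1, 131, 113 and 280 in mice 1 to 5. Mouse 5 was the highest and mouse 2 the lowest for both genes. Its slope was -0.13 ± 0.10 log2 per ms (limma adjusted p = 0.828). Plac8, a small cysteine-rich protein of several leukocytes, was high in mice 1, 3 and 5 at 557, 556 and 555 and low in mice 2 and 4 at 354 and 327. Blnk, an adaptor of B cell receptor signalling, read 340 in mouse 1 and 195 in mice 2 and 3, with 3 pairs as Siglech and 7 oppositely.

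The endosomal sensing genes were set against both Tcf4 and Siglech. Of 9 genes past the filter 5 ordered at least 8 of the 10 pairs of mice as Tcf4 did, compared with 11.1% of all genes tested, and 0 did so for Siglech, where 5.38% of all genes did. Equal values on 3 or more arrays, which bar a gene from 8 pairs, occurred in 0 of the 9 and in 38.2% of all genes tested. The shares are thus not on equal terms. The comparison with Tcf4 was chosen after the values were seen. Unc93b1, the chaperone that carries endosomal TLRs, read 668, 443, 579, 684 and 685 in mice 1 to 5, and Pld4, an endosomal nuclease, 566, 395, 596, 517 and 583. Slc15a4, a transporter of endolysosomes needed for their interferon response, read 302, 214, 246, 235 and 246. All 3 were lowest in mouse 2. Ap3b1, a subunit of the sorting adaptor AP-3, lay between 241 and 286. Of the receptors, named after their values were seen, Tlr9 read 272, 193, 213, 218 and 234 in mice 1 to 5 and Tlr7 ran from 90.3 in mouse 2 to 103 in mouse 5. The 9 slopes ran from -0.056 to 0.013 and 0 passed the test.

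B cell genes, some of which plasmacytoid dendritic cells share, were read in the same way. The B cell list had means over 9 genes of 8.96, 8.10, 8.07, 8.65 and 8.61 log2 in mice 1 to 5, highest in mouse 1. Ms4a1, which encodes CD20, read 1171, 565, 689, 839 and 913 in mice 1 to 5, and ordered 8 pairs of mice as Tcf4 did and 4 as Siglech did. Cd79a, a chain of the B cell receptor, read 1158, 747, 967, 1337 and 1127, with 6 pairs alike to Tcf4. Over the 8 B cell genes past the filter a median of 7 pairs were ordered as by Tcf4 and 3 as by Siglech, where all genes tested gave 5 and 4. Of the 8 genes 2 ordered at least 8 pairs as Tcf4 did, where 11.1% of all genes did. Equal values on 3 or more arrays occurred in 0 of the 8 and in 38.2% of all genes, which lowers the share and medians of all genes. Spib, an Ets factor of B cells and plasmacytoid dendritic cells named after its values were seen, read 387, 199, 276, 294 and 319.5 in mice 1 to 5, with 8 pairs alike to Tcf4. The 5 genes past the filter closest to Tcf4 by centred values were Kynu, Fcho2, Milr1, Mcoln2 and Cd244a, named after their values were seen. They were picked as the smallest differences among all genes tested, so their 0.066 to 0.072 log2 is low by that choice. The 8 B cell genes differed from Tcf4 by 0.203 to 0.509, and the ranges are not on equal terms. The difference also depends on how widely a gene varies between mice. The part of B cells in the Tcf4 values was not tested.

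**Figure D4:**
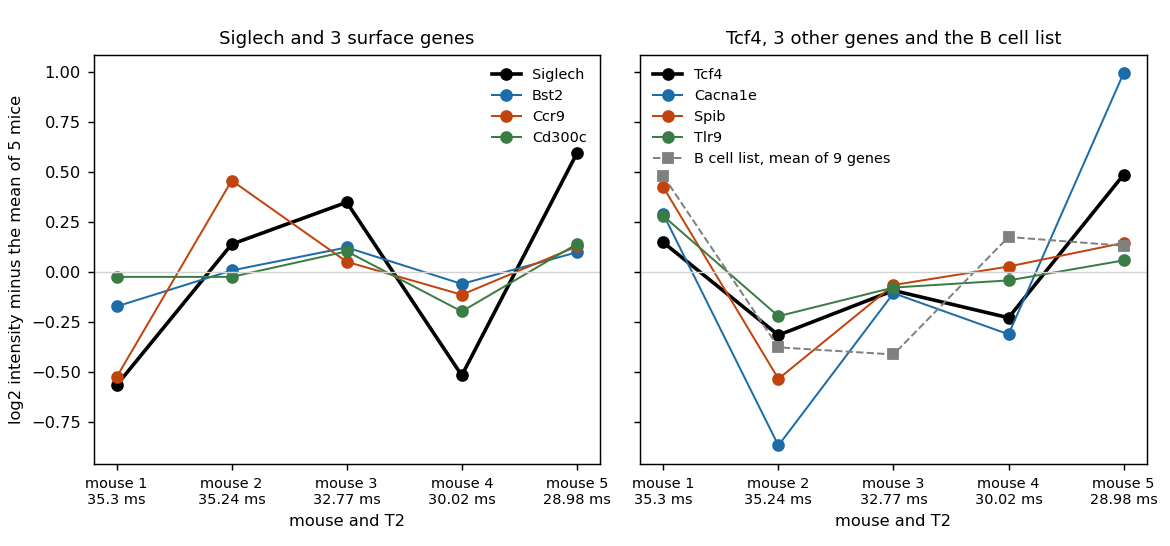
Log2 intensity of each gene minus its mean over the 5 mice (y axis) in each mouse with its T2 (x axis), for Siglech with Bst2, Ccr9 and Cd300c (left) and for Tcf4 with Cacna1e, Spib, Tlr9 and the mean of the 9 B cell genes (right); each point is 1 array. Bst2, Ccr9 and Cd300c are the 3 of 9 surface genes that order at least 8 pairs of mice as Siglech does. Cacna1e, Spib and Tlr9 are among the genes that do so for Tcf4, so the likeness shown follows from the choice. Siglech and these 3 surface genes dip in mice 1 and 4, although Cd300c is near its mean in mouse 1. Tcf4, Cacna1e, Spib and Tlr9 are lowest in mouse 2.

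Other cells of the sort were read in the same way, and here too the comparison with Tcf4 was chosen after the values were seen. For T cells, 7 of 9 genes ordered at least 8 pairs opposite to Tcf4, compared with 3.74% of all genes tested. Equal values on 3 or more arrays, which bar a gene from 8 pairs, occurred in 0 of the 9 and in 38.2% of all genes. Against Siglech 0 of the 9 reached 8 pairs alike and 0 reached 8 opposite, with a median of 6 alike. Cd3g ran from 1417 in mouse 1 to 2291 in mouse 2 and Cd3e from 446 to 788 in the same mice. In the neutrophil list, S100a8 ran from 96.8 in mouse 4 to 459.6 in mouse 3 and S100a9 from 150.2 to 644.5 in those mice. Over the 3 neutrophil genes past the filter the median was 7 pairs as Siglech and 7 as Tcf4, where all genes tested gave 4 and 5. All 3 ordered the mice alike, so this median rests on 1 pattern. Equal values on 3 or more arrays, which lower the medians of all genes, occurred in 0 of the 3. In the macrophage list, Apoe ran from 534 in mouse 2 to 1699 in mouse 5 and Csf1r from 453 to 729. Over the 7 macrophage genes the median was 7 pairs as Siglech and 6 as Tcf4, with 0 of them equal on 3 or more arrays. Of the plasma cell genes, Jchain, the joining chain of secreted antibody, ran from 147 in mouse 2 to 298 in mouse 1 and Xbp1 from 258 to 344. Of the NK cell list, Gzma ran from 62.9 in mouse 4 to 151 in mouse 5, with 8 pairs as Siglech and 6 as Tcf4. Eomes ran from 60.0 in mouse 1 to 83.7 in mouse 4, with 4 pairs as Siglech and 2 as Tcf4. Acinar carry-over was highest in mouse 1 for both Ctrb1, at 404 there and 182 in mouse 2, and Cpa1, at 239.8 there and 121 in mouse 2. These genes ordered 9 and 8 pairs as Tcf4 did, and 5 and 4 as Siglech did. Cela1, named after its values were seen, ordered 7 as Tcf4 and 3 as Siglech. Of the 3 acinar genes past the filter 2 thus reached 8 pairs for Tcf4, where 11.1% of all genes did. For Siglech 0 did, where 5.38% of all genes did. None of the 3 was equal on 3 or more arrays, so the shares are not on equal terms. The part of acinar carry-over in the Tcf4 values was not tested.

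Conventional dendritic cells were measured beside them. Of 8 genes 5 passed the filter, where 6603 of all 19938 genes did. Ccr7, the receptor of migrating dendritic cells and naive T cells, ran from 456 in mouse 3 to 602 in mouse 2. Cd24a ran from 269 in mouse 2 to 532 in mouse 5. Of the defining genes of the Batf3-dependent subset, named after their values were seen, Xcr1 lay between 14.7 and 21.4 and Clec9a between 13.1 and 14.9, both under the filter. Over the 5 genes a median of 5 pairs were ordered as by Siglech and 4 oppositely. Of the 5 genes 0 passed the T2 test, and 1 had an unadjusted limma p under 0.05, where 5.29% of all genes tested did. That gene was Fscn1, named after its values were seen, which ran from 113 in mouse 1 to 308 in mouse 4. Its slope was -0.17 ± 0.048 log2 per ms (limma adjusted p = 0.727).

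Interferon transcripts, the product of activated plasmacytoid dendritic cells, lay under the filter. Of the 5 interferon genes measured 0 passed the filter, where 6603 of all 19938 genes did. Ifnb1 lay between 8.79 and 10.7, Ifna4 between 8.28 and 9.47, and Ifna5 read 58.3 on 4 arrays and 57.4 in mouse 5; these were named after their values were seen. Both receptor chains passed the filter, with Ifnar1 equal at 200.1 on 3 arrays and Ifnar2 between 259 and 302. Of 11 measured interferon-stimulated genes 3 passed the filter, a share near that of all genes. Among them were Stat2 at 186 to 233 and Irf9 at 114 to 144, with slopes of -0.02 ± 0.019 and 0.03 ± 0.018. Of the 3 genes 0 passed the T2 test, as did 0 of all 6603.

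The genes past the filter whose centred values lay closest to those of Siglech were Rny3, a small noncoding Y RNA, Snhg5, a snoRNA host gene, Txn1, thioredoxin, Gbe1, the glycogen branching enzyme, and Spcs1, a subunit of signal peptidase. Rny3 read 695, 1105, 1340 and 929 in mice 1 to 4 and 1094 in mouse 5, with a mean absolute difference of 0.194 log2 from Siglech over the 5 mice. Txn1 ran from 428 in mouse 1 to 877 in mouse 3 and Spcs1 from 165 in mouse 1 to 257 in mouse 5, each with 9 pairs of mice ordered as by Siglech. Snhg5, at 68.3 to 129.7, and Gbe1, at 50.2 to 114, had differences of 0.237 and 0.241. Of the named plasmacytoid dendritic cell genes the nearest to Siglech among 6602 genes were Ly6d at rank 303, Pacsin1 at 627 and Tcf4 at 1071, while the 28 genes of the other plasmacytoid dendritic cell lists ran from Ccr9 at rank 56 to Bcl11a at 6583. The median difference of those 28 from Siglech was 0.438 log2, against 0.441 over all genes tested. A flat gene is at a moderate distance by this measure whatever its order.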

How the data were processed

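The authors deposited 1 linear intensity for each probe set and array. The submitters' processing notes name RMA and Affymetrix Power Tools; their versions and the build were not given in the sources used here. Total RNA of pancreatic CD45+ cells was extracted with TriZol and labelled with biotin, per the labels' protocols. RMA corrects background, quantile normalizes arrays and summarizes each probe set, so changes shared by most genes are removed. No batch, slide or date was given, and T2 follows the numbering of the samples, so any handling by number and T2 cannot be told apart.

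Of 35556 probe sets, 21789 had 1 gene symbol in GEO's platform annotation, 1621 several and 12146 were unnamed here. The set of highest mean was taken per gene. Log2 intensity was fitted on T2 with limma 3.58.1 in R 4.3.3 (lmFit, eBayes, 3 residual degrees of freedom, Benjamini-Hochberg over 6603 genes); values and intervals of single genes come from that fit, and it was tested on simulated data. The number of arrays limits precision. Apart from the number and T2, the labels give no trait that differs between the mice. The p-values measure the spread between these samples. The genes and lists were chosen with earlier results of these data known. Named were the 5 measured genes, the 4 genes of highest mean in each related list, 2 in every other list and the 5 nearest to Siglech; other names are marked. Alternatives were filters, a pseudocount, normalizations, probe-set means, T2 ranks, variance models, array weights and each mouse left out.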

Additional observations from a re-analysis of the deposited data

Results flagged for a closer look

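In 80 values examined, 61 genes and 19 list means, 1 mouse lay far from the other 4 in 11: its distance to the next mouse took up more than 0.71 of the span of the 5 values. For independent, normally distributed values without ties about 1 in 20 would do so by chance. List means share values with their genes. Equal values on 3 or more arrays occurred in 7 of the 11, so 1 in 20 is no yardstick for these 11. None of the 5 measured plasmacytoid dendritic cell genes was among them. Mouse 5 was apart for Tspan13 (highest, gap share 0.859), Ap3b1 (highest, 0.789), Acta1 (lowest, 0.777), Krt10 (lowest, 1.0), Sst (lowest, 0.84) and the islet list (lowest, 0.748). Mouse 2 was lowest for Lifr (0.762), at 6.31 log2 against 6.88 to 7.05 in the others. Mouse 4 was highest for Stat3 (0.801), at 9.14 against 8.84 to 8.90. Mouse 3 was lowest for Ifnar1 (0.767) and highest for the neuron list (0.797), and mouse 1 was highest for Ly6g6c (1.0). Acta1, Krt10, Sst, Ly6g6c and both lists lay under the filter.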

How the results depend on the processing

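No member passed the T2 test under any of the 16 other fits, each with 0 called. Over all genes 0 passed in 13 alternatives, the fits without each mouse included (0 to 0), while 3 passed with a filter of 7, 4 with arrays quantile normalized again, 4 with array weights and 3 at an adjusted p under 0.10. The slope of Cox6a2 kept its sign in 15 alternatives, from -0.034 to -0.0067. Other slopes changed sign. That of Siglech was 0.048 with array weights and between -0.13 and 0.035 with 1 mouse left out (0.0038 without mouse 1, 0.035 without mouse 5). That of Tcf4 ran from -0.090 to 0.026, above 0 without mouse 5, and that of Pacsin1 from -0.0078 without mouse 2 to 0.020. That of Ly6d was 0.0039 with arrays normalized again, 0.019 with array weights and between -0.031 and 0.031 with 1 mouse left out (0.031 without mouse 5). The cause was not tested. The median difference between the genes was 0.255 to 0.289 log2 over 4 other treatments of the values and 0.195 to 0.340 without each mouse. Under a filter of 7 Siglech, Pacsin1 and Cox6a2 were not refitted. No paired analysis was possible because the mice form 1 group. Siglech and Cox6a2 lie at low intensity, which limits how far their differences between mice can be read.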
